A study of Mus musculus with 89 samples.

Results

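Klotho heterozygous mice (Klhet) at 9 months of age were compared with their age-matched wild-type controls (WT-o) in bulk RNA-seq of the hippocampus. The members are the libraries that the sample labels give as Klotho heterozygote or wild type and old, which are 5 Klhet and 4 WT-o libraries of the 89 libraries in the series, with 1 library per mouse. Klhet mice are heterozygous for a loss of α-Klotho and WT-o mice carry the normal gene. The Klotho colony was kept in-house from repository breeders. The allele and the strain background of the colony are not given in the sources used here, and the labels give no sex for these mice. Another 8 libraries of 2-month-old mice, 4 of Klotho knockouts (Klko) and 4 of their wild-type controls (WT-y), were fitted together with them and are given beside some results. For the tissue the labels say brain, their extraction text says cortex and their dissection text and the study's methods say hippocampus. Prox1, a transcription factor of dentate gyrus granule cells, was at 50.6 to 65.6 CPM in Klhet and 43.2 to 80.5 CPM in WT-o libraries, so that a hippocampal marker was present in all 9.

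α-Klotho is a membrane protein that is shed into the circulation and the cerebrospinal fluid and serves as a co-receptor for fibroblast growth factor 23. In the brain its transcript is most abundant in the choroid plexus, with less in neurons, and mice without it age prematurely and are known for poorly myelinated fibre tracts. Myelin is built by oligodendrocytes, which arise from precursor cells under the transcription factors OLIG2, SOX10 and MYRF, and myelinated axons are divided into domains by adhesion proteins of the immunoglobulin and contactin families that hold ion channels in place.

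Values are in CPM, in which every library is brought to the same total of counted reads, and were rescaled between libraries by TMM factors. The Klhet libraries held 26338890 to 39360781 counted reads and the WT-o libraries 34825335 to 37913601, so that 1 CPM stood for 26.3 to 39.4 reads. Differences are log2 fold changes of Klhet over WT-o on log2(CPM + 0.5), a scale that understates the change of low genes, with unadjusted p-values from limma unless stated. After Benjamini-Hochberg adjustment over 14964 genes none was higher and none lower at an adjusted p under 0.05 by limma (smallest adjusted p = 0.305), and none by edgeR. At an unadjusted p under 0.05, 999 genes (6.68%) were higher and 600 (4.01%) lower in Klhet, which is the background for every count below from this fit. The median over all genes was -0.007. DESeq2 on the reads recovered from the CPM values passed 6 genes, Eef1e1 higher and Cntn2, Trf, Wdr60, Tmod1 and Akap8 lower.

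Several libraries stood apart. The sum of 19 striatal neuron markers was 319 to 425 CPM in Klhet, against 2058 CPM in WT-o replicate 2 and 377 to 417 CPM in the other WT-o libraries, and hypothalamic markers were highest in the same library, at 207 CPM. Without it 472 genes (3.15%) were higher and 304 (2.03%) lower, so losses of a call without this library are named below. Klhet replicate 5 held the least choroid plexus epithelium, with 24 markers at 614 CPM against 4524 to 11709 CPM in the other 8 libraries. The summed level of 6 kidney transcripts (Slc34a1, Kap, Pck1, Egf, Acsm2 and Umod) was 0.37 to 0.9 CPM in Klhet replicates 2 to 5, against 9.59 CPM in Klhet replicate 1 and 8.55 to 10.5 CPM in WT-o, and the young libraries lay at 8.26 to 11.4 CPM. Klhet replicates 2 to 5 were also the most shallow of the 17 libraries, at 26338890 to 30498852 reads, so that library handling and genotype cannot be told apart for differences they share. Transcripts of the Y chromosome were present in all 9 libraries. Among the 2-month-old mice, striatal markers summed to 1910, 326, 776 and 2893 CPM in Klko replicates 1 to 4, against 377.5, 1677, 269.5 and 300.1 CPM in WT-y replicates 1 to 4, and Klko replicate 3 held almost no Y transcripts (Ddx3y at 0.061 CPM). Ttr, the leading choroid plexus transcript, was at 250 CPM in Klko replicate 1, against 2230 to 7370 CPM in the other 7 young libraries.

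**Figure D1:**
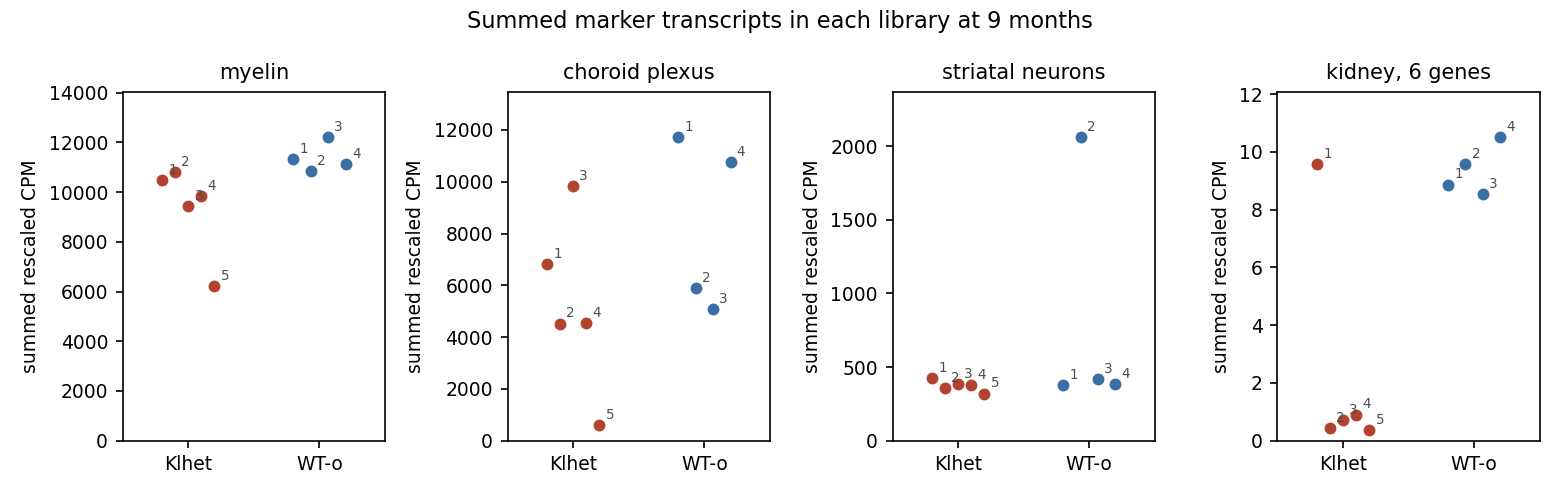
Summed rescaled CPM of marker transcripts in each library (y axes, linear from 0), with Klhet left of WT-o and the replicate number beside each point. WT-o replicate 2 stands alone for striatal neurons at 2058 CPM, Klhet replicate 5 is lowest for choroid plexus at 614 CPM and for myelin at 6206 CPM, and Klhet replicates 2 to 5 are near 0 for 6 kidney genes.

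Kl itself, the gene of α-Klotho on chromosome 5 (150952607 to 150993817, GRCm38), was lower in Klhet mice, with overlap between the groups. It was at 85.5, 57, 127, 58.5 and 16.1 CPM in Klhet, against 251, 121, 128 and 194 CPM in WT-o. Klhet replicate 3 lay within the WT-o range, and Klhet replicate 5 was the lowest. The log2 fold change was -1.54 (standard error 0.60, p = 0.0196, adjusted p = 0.422 by limma), and an exact two-sided permutation test over the libraries gave p = 0.0317, where 5 against 4 libraries allow no p below 0.0159. The difference was -1.69 without WT-o replicate 2 (p = 0.0212), and without Klhet replicate 5 it no longer reached the unadjusted threshold (p = 0.0628). The 24 choroid plexus markers, Kl among them, had negative fold changes, but Kl was the only one at an unadjusted p under 0.05. Their median was -0.96 with all libraries and -0.42 without Klhet replicate 5, and their summed level was 6828, 4524, 9840, 4526 and 614 CPM in Klhet, against 11709, 5885, 5090 and 10758 CPM in WT-o. Klhet replicates 1 and 3 thus lay inside the WT-o range. With the level of these markers except Kl and Enpp2 as a covariate the difference of Kl was -0.67 (p = 0.000145). Of 30 measured ligands, receptors and effectors of Klotho, 2 were higher (the fibroblast growth factor receptor Fgfr3 and the ETS factor Etv4, a target of that pathway) and 2 lower (Kl and Slc34a1, a phosphate transporter of the kidney that belongs to the transcripts near 0 in 4 Klhet libraries).

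Beside Kl, lower values were found for genes of oligodendrocytes and of the axons they wrap. Cntn2 encodes contactin 2, a glycolipid-anchored adhesion protein that lies beside the nodes of myelinated axons and on the glial membrane facing them. Cntn2 was at 148, 149, 113, 130 and 103 CPM in Klhet, against 181, 206, 201 and 165 CPM in WT-o, and every Klhet library lay below every WT-o library. The log2 fold change was -0.56 (standard error 0.11, p = 8.745e-05, adjusted p = 0.347 by limma, adjusted p = 0.0154 by DESeq2). Without WT-o replicate 2 it was -0.51 (p = 0.000525), and over all libraries left out in turn the unadjusted p stayed at or below that value. Trf encodes transferrin, the iron carrier that oligodendrocytes and the choroid plexus make. Its level was 352, 382, 299, 348 and 234 CPM in Klhet, against 496, 476, 549 and 388 CPM in WT-o, again with no overlap. The fold change of Trf was -0.57 (standard error 0.13, p = 0.000302, adjusted p = 0.421 by limma, adjusted p = 0.0458 by DESeq2), and it was -0.50 with choroid plexus markers as a covariate (p = 0.00116). Klhet replicate 1 was the Klhet library that held the kidney transcripts. As the only Klhet library it gave log2 fold changes of -0.34 for Cntn2, -0.43 for Trf and -0.95 for Kl. Cntn2 lies on chromosome 1 (132509427 to 132543256) and Trf on chromosome 9 (103204001 to 103230444).

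Among 50 genes of myelin and mature oligodendrocytes, a list that holds Cntn2 and Trf and was put together with their result known, 10 were lower at an unadjusted p under 0.05 (20% of the list, against 4.01% of all genes) and none higher. The median was -0.31, and 46 of the 50 had a negative fold change, ranging over the list from -0.98 for Enpp2 to 0.15 for Serpind1. Enpp2 is also on the list of choroid plexus markers, whose median was -0.96, so its value is not one of oligodendrocytes alone. In bulk RNA, fewer cells of a type and less RNA per cell cannot be told apart. Besides Cntn2 and Trf, the lower genes were Arsg, Gpr37, Plekhh1, Tmem88b, Gjb1, Apod, Ermn and Dock5. Arsg, a lysosomal sulfatase, was at 47, 37, 45.1, 34.5 and 22.8 CPM in Klhet, against 55.1, 56.6, 55.2 and 61.4 CPM in WT-o. Its log2 fold change was -0.65 (p = 0.00142), the groups did not overlap, and the WT-o libraries were close together. With Klhet replicate 1 as the only Klhet library the difference of Arsg was -0.27. Gpr37, an orphan-type receptor of oligodendrocytes, was at 121, 127, 103, 111 and 82.1 CPM in Klhet, against 124, 156, 165 and 124 CPM in WT-o (-0.39, p = 0.00486). For Gpr37 only Klhet replicate 2 reached into the WT-o range. Gjb1, which encodes the gap junction protein connexin 32, differed by -0.43 (p = 0.0322), and Ermn, a cytoskeletal protein of myelinating cells, by -0.36 (p = 0.0422). Apod, which encodes the lipid carrier apolipoprotein D, differed by -0.32 (p = 0.0325) and Dock5, an activator of Rac, by -0.41 (p = 0.0451).

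Structural genes of myelin named here did not pass. Mag, an adhesion glycoprotein of the myelin sheath, was at 217, 245, 174, 213 and 129 CPM in Klhet, against 235, 282, 279 and 227 CPM in WT-o (-0.41, p = 0.113). Mbp, which encodes myelin basic protein, averaged 2941 ± 549 CPM in Klhet and 2983 ± 526 CPM in WT-o (SD, n = 5 and 4). Its difference was -0.03 (p = 0.897). Mog, a glycoprotein of the outer sheath surface, differed by -0.45 (p = 0.0716). The enzyme Cnp differed by -0.35 (p = 0.143) and the raft protein Mal by -0.50 (p = 0.0501).

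**Figure D2:**
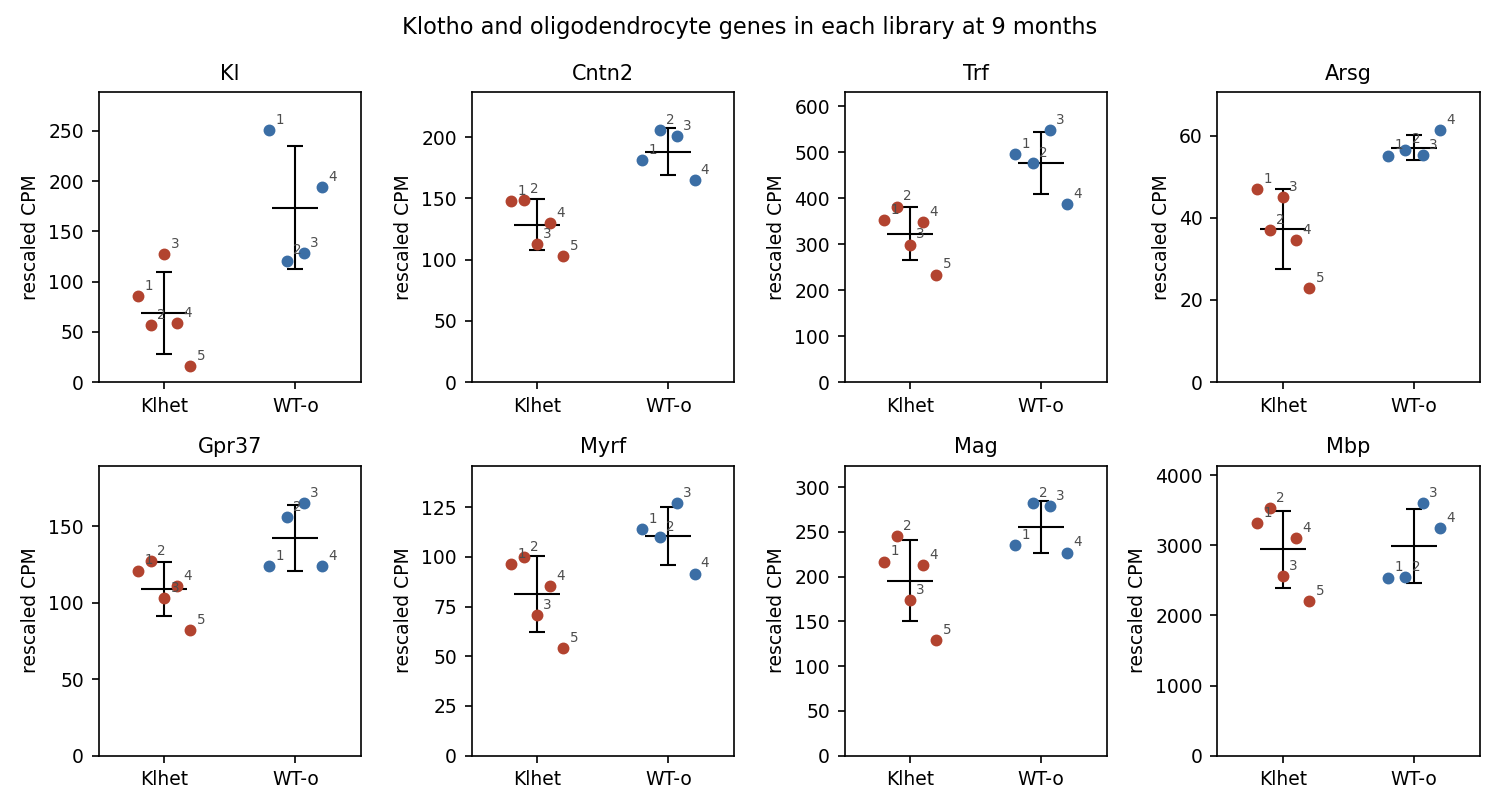
Rescaled CPM (y axes, linear from 0) of Kl and 7 oligodendrocyte genes in each library, with Klhet left of WT-o, the replicate number beside each point, and the mean with its SD in black (n = 5 and 4). For Cntn2, Trf and Arsg every Klhet library lies below every WT-o library, and for Mbp the groups overlap, with means of 2941 and 2983 CPM.

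The size of the myelin difference depended on Klhet replicate 5, which was the lowest of the 9 libraries for 46 of the 50 genes. Relative to the WT-o mean the median log2 ratio over the list was -0.17, -0.13, -0.33, -0.15 and -0.87 in Klhet replicates 1 to 5, against -0.08, 0.04, 0.14 and -0.15 in WT-o replicates 1 to 4. Thus 3 Klhet libraries had medians close to that of WT-o replicate 4. The summed level of the list was 10483, 10808, 9442, 9830 and 6206 CPM in Klhet, against 11335, 10831, 12200 and 11141 CPM in WT-o. These sums did not overlap, by a margin of only 23 CPM. They hold Enpp2, which is also on the choroid plexus list, and Trf, which the choroid plexus makes as well. The part of choroid plexus content in this margin was not tested. Without Klhet replicate 5 the median was -0.20 and 4 genes (Cntn2, Trf, Arsg and Gpr37) were lower, where 451 of all 14964 genes were. Without WT-o replicate 2 the median was -0.28 with 5 lower, which were these 4 and Apod, against a background of 2.03%. Without both libraries the median was -0.16 with 5 lower, where 223 of all 14961 genes were. Klhet replicate 5 was also the library with the least choroid plexus. With choroid plexus markers as a covariate 5 myelin genes were lower, where 628 of all 14964 genes were, and the median was -0.25. Whether dissection had a part in the myelin difference was not tested. With the trend on transcript length removed from each library the median of -0.31 and the count of 10 did not move, where 418 of 14502 genes were lower.

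**Figure D3:**
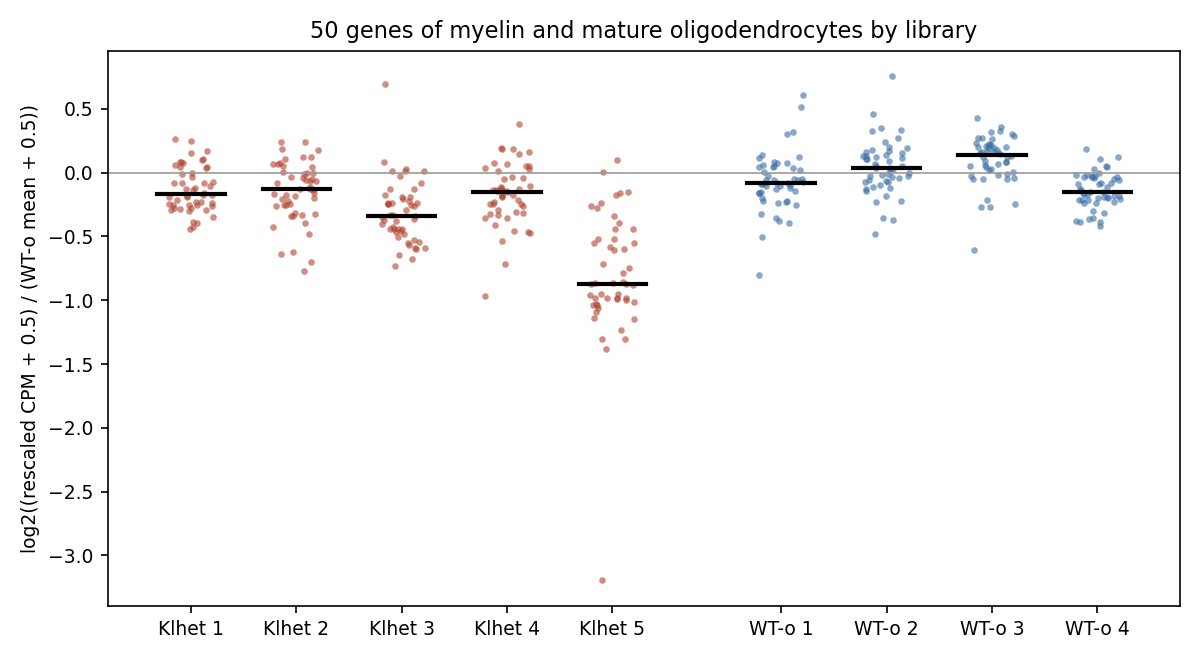
Log2 ratio of rescaled CPM + 0.5 to the WT-o mean + 0.5 (y axis) for 50 genes of myelin and mature oligodendrocytes in each library (x axis), with 1 point per gene, Klhet left of WT-o and a black bar at the median. Klhet replicate 5 has a median of -0.87, and the other Klhet libraries have medians of -0.33 to -0.13, against -0.15 to 0.14 in WT-o.

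Among 31 measured glial transcription factors, Myrf, the regulator that oligodendrocytes switch on to build and keep myelin, was the only one lower. Myrf was at 96.4, 99.9, 70.6, 85.5 and 54.1 CPM in Klhet, against 114, 110, 127 and 91.6 CPM in WT-o (-0.47, p = 0.0121, adjusted p = 0.421 by limma). Klhet replicates 1 and 2 overlapped with WT-o replicate 4, and the unadjusted p was at most 0.0449 with any library left out. Sox10, which acts upstream of Myrf, averaged 112 ± 27.2 CPM in Klhet and 131 ± 13.5 CPM in WT-o (-0.25, p = 0.14). Olig1 and Olig2, which mark the whole lineage, differed by 0.17 (p = 0.378) and 0.12 (p = 0.454). Higher were Hes5, an effector of Notch signalling (0.48, p = 0.0415), and Sox2, a factor of progenitors and astrocytes (0.30, p = 0.0445), and Sox2 did not pass without WT-o replicate 2 (p = 0.156). Of 25 genes of oligodendrocyte precursors and new oligodendrocytes, 3 were higher and none lower, with a median of 0.09. These were the calcium channel Itpr2 of newly formed oligodendrocytes (0.30), the receptor phosphatase Ptprz1 (0.17) and Sapcd2 (0.44), of which only Sapcd2 remained without WT-o replicate 2 (p = 0.0453). Pdgfra, the defining receptor of the precursors, was at 59 ± 8.65 CPM in Klhet and 59.3 ± 6.72 CPM in WT-o. The precursor list thus did not share the negative median of the mature list, and the difference between the lists was not tested.

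The 250 bases before the first listed start of the lower myelin genes were searched for words that the factors of this lineage bind: ACAAAG and ACAATG, which SOX proteins recognise, and CTGGCAC, one form of the MYRF word, on both strands. RefSeq sequences (GRCm38.p6) matched 8 of the 10 genes, 37 of the 50 myelin genes and 11238 of all genes tested. At least 1 SOX word was in 5 of the 8 (62.5%), in 16 of the 37 (43.2%) and in 16.8% of all promoters. CTGGCAC was in none of the 8, in 5 of the 37 (13.5%) and in 4.17% of all. A match is a description of these letters and no evidence of binding. The starts are those of RefSeq, and by the GENCODE gene positions the windows shown for Cntn2 and Arsg lie inside the genes. Shown 5′ to 3′ on the strand of the gene are Cntn2, the gene with the smallest p of the list, which held none of the words, and 3 of the 5 genes with a match, in capitals, where CTTTGT and CATTGT are the SOX words read on the other strand.
Cntn2, chr1:132542941-132543190, minus strand: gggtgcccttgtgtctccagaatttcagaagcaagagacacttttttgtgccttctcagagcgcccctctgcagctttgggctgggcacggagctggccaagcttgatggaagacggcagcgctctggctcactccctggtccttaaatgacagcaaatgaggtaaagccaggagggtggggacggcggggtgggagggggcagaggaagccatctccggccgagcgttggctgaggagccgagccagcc
Arsg, chr11:109485642-109485891, plus strand: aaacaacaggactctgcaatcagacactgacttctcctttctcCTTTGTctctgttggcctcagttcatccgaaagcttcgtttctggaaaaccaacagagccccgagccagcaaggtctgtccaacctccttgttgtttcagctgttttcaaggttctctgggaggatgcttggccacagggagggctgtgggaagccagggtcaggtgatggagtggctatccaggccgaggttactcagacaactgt
Ermn, chr2:58052865-58053114, minus strand: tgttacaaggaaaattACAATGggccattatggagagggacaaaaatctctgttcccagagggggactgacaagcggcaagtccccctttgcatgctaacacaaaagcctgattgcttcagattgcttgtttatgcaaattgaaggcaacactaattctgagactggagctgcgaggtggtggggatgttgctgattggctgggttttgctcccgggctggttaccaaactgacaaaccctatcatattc
Tmem88b, chr4:155785875-155786124, minus strand: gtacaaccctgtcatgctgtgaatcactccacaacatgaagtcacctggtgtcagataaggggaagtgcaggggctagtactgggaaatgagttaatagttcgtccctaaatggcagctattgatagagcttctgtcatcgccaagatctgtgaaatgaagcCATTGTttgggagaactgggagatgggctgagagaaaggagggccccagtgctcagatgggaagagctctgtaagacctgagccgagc

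Few adhesion genes outside myelin passed. Of 49 axonal and glial adhesion genes of the immunoglobulin and contactin families, 2 were lower and none higher, with a median of -0.07 and negative fold changes for 40. These 2 were Cntn2 and the endothelial and mural adhesion molecule Mcam. Mcam was at 18.6, 21.6, 22.3, 21.7 and 15.9 CPM in Klhet, against 27.9, 33.9, 26.9 and 23.7 CPM in WT-o, with no overlap (-0.48, p = 0.0282, and p = 0.0922 without WT-o replicate 2). Partners of contactin 2 at the same axonal domain had negative fold changes, not all of which passed. Cntnap2, with which it forms a complex, differed by -0.18 (p = 0.317). The potassium channels that this complex holds in place differed by -0.32 for Kcna1 (p = 0.0121) and -0.16 for Kcna2 (p = 0.11), and Kcna6 of the same family by -0.28 (p = 0.0143). Kcna1 was at 188, 192, 149, 152 and 158 CPM in Klhet, against 198, 250, 220 and 171 CPM in WT-o, and without WT-o replicate 2 neither Kcna1 (p = 0.0604) nor Kcna6 (p = 0.0534) passed. At the neighbouring paranode and node, Cntnap1 differed by -0.07 (p = 0.35) and Nfasc by -0.30 (p = 0.15). Over 54 potassium and HCN channels, 2 were higher and 4 lower, and the others were Kcnh1 (-0.33) and Kcnj2 (-0.52), both lower, and Kcnab2 (0.32) and Kcnj16, both higher. Kcnh1, Kcnj2 and Kcnab2 did not pass without WT-o replicate 2. Kcnj16, an inward rectifier of astrocytes, was at 31.1, 32, 37.4, 30.9 and 37.8 CPM in Klhet, against 25.3, 21.7, 22.4 and 29.2 CPM in WT-o, with no overlap (0.45, p = 0.00122, and p = 0.00619 without WT-o replicate 2).

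Of 41 cadherins and delta protocadherins, Cdh23 was higher and Cdhr1 lower (-0.40), and Cdhr1 did not pass without WT-o replicate 2 (p = 0.072). Cdh23, known for the tip links of hair cells, was at 5.74, 3.93, 4.4, 3.52 and 3.3 CPM in Klhet, against 3.27, 1.68, 2.87 and 3.15 CPM in WT-o (0.54, p = 0.00778). The lowest Klhet library was thus only just above the highest WT-o library. Of 50 synaptic adhesion organisers, 1 was higher and 1 lower, and neither passed without WT-o replicate 2. The lower gene was Flrt2, a ligand of latrophilins (-0.22, p = 0.0353). Of 46 integrins and matrix ligands, 4 were lower and none higher, namely Itga9 (-0.44), Itgb4 (-0.40), the laminin subunit Lama2 (-0.21) and the matrix protein Thbs4 (-0.64), of which Itgb4 and Lama2 passed without WT-o replicate 2. Of 63 guidance genes 3 were higher and 3 lower. Ntn3, a netrin, and Sema6b, a transmembrane semaphorin, each differed by 0.35 (p = 0.00596 and 0.00865), and both passed without WT-o replicate 2 (p = 0.0343 and 0.0449). Unc5b, a netrin receptor, differed by -0.44 (p = 0.0186) and by -0.43 without that library (p = 0.0357). Plxnc1 (0.20), Sema6d (-0.21) and Sema3f (-0.62), a plexin and semaphorins, passed only with it.

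Receptors were mostly within the spread of the libraries. None of 7 metabotropic glutamate receptors passed, and of 15 GABA receptor genes only Gabrr2, a subunit of the rho type, was lower. Gabrr2 was at 0.769, 0.354, 0.978, 0.45 and 0.606 CPM in Klhet, against 1.88, 1.21, 1.71 and 1.29 CPM in WT-o, with no overlap (-0.85, p = 0.00619, and p = 0.00719 without WT-o replicate 2). At these levels a library held few reads of the gene, since 1 CPM stood for 26.3 to 39.4 reads. Among 40 monoamine and acetylcholine receptors, the nicotinic subunits Chrna3 and Chrnb4, which form a receptor typical of the habenula, were lower. Chrna3 was at 0.795, 0.814, 0.358, 0.3 and 0.976 CPM in Klhet, against 1.6, 4.2, 2.43 and 0.75 CPM in WT-o (-1.14, p = 0.0025, and p = 0.015 without WT-o replicate 2). Chrnb4 was at 1.05, 0.672, 1.08, 0.487 and 0.404 CPM in Klhet, against 1.05, 5.14, 3.71 and 1.53 CPM in WT-o (-1.28, p = 0.00351, and p = 0.0205 without WT-o replicate 2). Both were highest in WT-o replicate 2. None of 15 thalamus and habenula markers passed, and their median was -0.28 with all libraries and -0.02 without WT-o replicate 2. Tissue from these regions beside the hippocampus was not tested as a source of the 2 subunits. Adra2c, an inhibitory adrenergic receptor, was at 90.8, 94.4, 90.8, 94.6 and 71.3 CPM in Klhet, against 67.3, 53.5, 73.7 and 60.9 CPM in WT-o (0.47, p = 0.0191, and p = 0.0657 without WT-o replicate 2).

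Of 39 growth factor receptor kinases, 3 were higher (Fgfr3, Axl and Fgfrl1) and 1 lower (Ret), and none of the 4 passed without WT-o replicate 2. Fgfr3, which astrocytes carry, was at 198, 203, 211, 197 and 224 CPM in Klhet, against 188, 128, 144 and 170 CPM in WT-o, with no overlap (0.41, p = 0.0142, and p = 0.0622 without that library). Among 33 Wnt receptors and antagonists, 3 were higher and 3 lower. Rnf43, a membrane ubiquitin ligase that removes Frizzled receptors from the cell surface, was at 4.69, 3.71, 4.5, 4.24 and 3 CPM in Klhet, against 6.67, 5.3, 6.49 and 6.31 CPM in WT-o. Its groups did not overlap (-0.57, p = 0.000593), and it was at -0.64 without WT-o replicate 2 (p = 0.000483). Fzd9, a Frizzled receptor, was at 12.6, 15.5, 16.6, 16.3 and 13.7 CPM in Klhet, against 10.1, 7.69, 8.98 and 12.9 CPM in WT-o (0.58, p = 0.00265, and p = 0.0143 without that library). Only Klhet replicate 1 and WT-o replicate 4 of Fzd9 overlapped. Lgr6 (-0.84), a receptor for R-spondins, and Sfrp1 (-0.64), a secreted antagonist, were lower, and Lgr4 (0.29) and Ryk (0.18) were higher, and of these 4 only Lgr6 passed without WT-o replicate 2. Of 65 receptors for peptides, purines and lipids, P2ry12 (0.27) and Pth1r (0.36) were higher and Gpr37 and Lpar6 (-0.38) lower, of which only Gpr37 passed without that library. Of 22 receptors for TGF-beta, BMP and Notch ligands, Notch4 (0.31, p = 0.0401) was higher.

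Transcription factors held 4 nuclear receptors of 36 that were higher (11.1%, against 6.68% of all genes) and 1 that was lower, Pparg (-0.45, p = 0.0432), which did not pass without WT-o replicate 2 (p = 0.0769). Nr2f1, an orphan receptor that patterns the cortex and hippocampus, was at 95.1, 96.2, 98.9, 96.6 and 104 CPM in Klhet, against 77.1, 61.3, 79.3 and 82.8 CPM in WT-o. The 5 Klhet libraries were close together and above every WT-o library (0.39, standard error 0.09, p = 0.00056, adjusted p = 0.421 by limma), also without WT-o replicate 2 (0.30, p = 0.0029). Thra, the thyroid hormone receptor α, was at 897, 1020, 962, 955 and 994 CPM in Klhet, against 779, 602, 892 and 825 CPM in WT-o. The margin between the groups was narrow, and the difference was 0.33 (p = 0.00235), or 0.22 without WT-o replicate 2 (p = 0.00905). Nr1d1, a repressor of the circadian clock, differed by 0.24 (p = 0.00764, and p = 0.0398 without that library), and Nr2f6 by 0.53 (p = 0.0135, and p = 0.0709 without it). Of 68 homeodomain and other neuronal factors 7 were higher and 2 lower, and without WT-o replicate 2 the counts were 2 higher (Lhx2 and Etv4) and none lower. Lhx2, a selector gene of the cortex, was at 167, 174, 165, 177 and 154 CPM in Klhet, against 141, 75.3, 111 and 124 CPM in WT-o (0.60, p = 0.00737, and 0.42, p = 0.0417, without that library). The lowest of these values was that of WT-o replicate 2. Emx2 (0.51), Npas1 (0.38), Npas3 (0.31) and Pou3f1 (0.39) were higher and Lhx5 (-0.78) and Six3 (-1.34) lower only with that library. Of 25 forkhead genes 2 were higher, Foxo6 (0.54) among them, and of 25 Krüppel-like and related genes Klf15 (0.26) and Klf16 (0.25), and none of these 4 passed without that library. Six3, a factor of striatal neurons, was at 1.62 to 6.45 CPM in Klhet, against 28.3 CPM in WT-o replicate 2 and 5.21 to 11 CPM in the other WT-o libraries.

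Astrocyte and microglia markers included several higher genes, most of which did not pass without WT-o replicate 2. Of 20 astrocyte markers 6 were higher (Gja1, Fgfr3, Aldoc, Fabp7, Slc1a2 and Gfap) and none lower, with a median of 0.21, and none passed without WT-o replicate 2, where the median was 0.13. Summed astrocyte markers were at 8839 to 9429 CPM in Klhet and at 6424 CPM in WT-o replicate 2, with 8075 to 8436 CPM in the other WT-o libraries. Of 18 homeostatic microglia markers 4 were higher (Fcrls, P2ry12, Trem2 and Gpr34), and Fcrls alone passed without that library (0.44, p = 0.014). Fcrls was at 22.6, 25.5, 25.1, 24.8 and 29.1 CPM in Klhet, against 22.2, 8.27, 21.2 and 13.4 CPM in WT-o (0.72, p = 0.00344), and the lowest value was again that of WT-o replicate 2. None of 24 endothelial and mural, 18 meningeal and ependymal, 15 interneuron or 16 dentate granule cell markers passed. CA1 pyramidal cells had 3 higher genes of 12 (Mpped1, Nov and Pou3f1) and none without WT-o replicate 2. Single genes of other region lists, which likewise did not pass without that library, were Scgn (0.47) and Map3k15 (-0.48) of 15 for CA2 and CA3, Hs3st4 (0.39) of 19 for neocortical layers and Pomc (-1.08) of 13 for the hypothalamus. None of 19 striatal and 7 blood cell markers passed. The plot of list medians shows which lists shifted with that library.

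**Figure D4:**
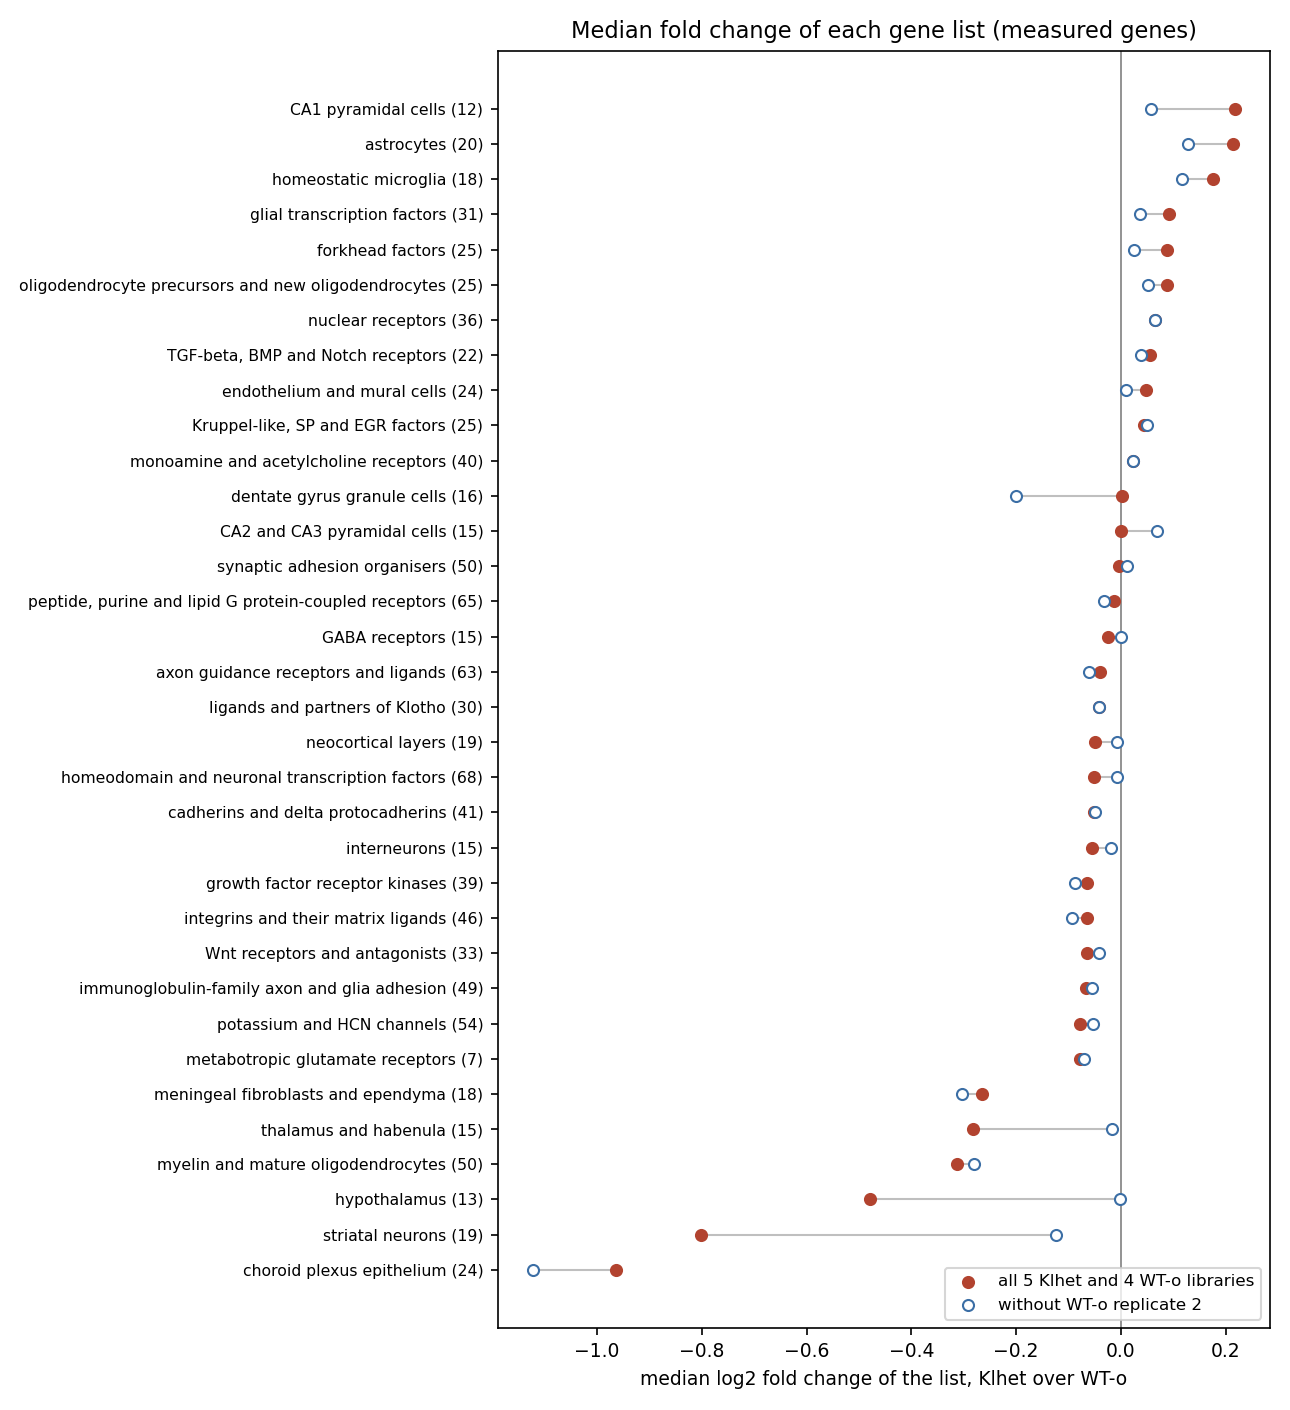
Median log2 fold change of Klhet over WT-o (x axis) for 34 gene lists with the number of measured genes (y axis), with all 9 libraries (filled) and without WT-o replicate 2 (open). The striatal median is at -0.80 with and -0.12 without that library, and the myelin median is at -0.31 with and -0.28 without it.

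By the rule for named genes, the 14 higher and 14 lower genes with the smallest unadjusted p were taken among genes of mean log2 CPM over 1 whose groups did not overlap. Groups without overlap were found for 3.72% of all genes in the higher and 2.33% in the lower direction, and without WT-o replicate 2 for 4.44% and 3.05%. The rule used the comparison itself, so these genes are described and not counted as support. Eef1e1, an auxiliary protein of the aminoacyl-tRNA synthetase complex, had the smallest p of the 28 at 28.1, 28.9, 28.4, 27.1 and 28.5 CPM in Klhet, against 20.7, 22.3, 21.7 and 24.4 CPM in WT-o (0.33, p = 3.313e-05). Higher beside it and Nr2f1 were genes of mitochondria (Romo1 at 0.52, the pyruvate carrier subunit Mpc2 at 0.36, Cox7a2 at 0.49 and Mrpl57 at 0.36) and ribosomal proteins (Rps7 at 0.78 and Rps27 at 0.63). Fbxo44, a receptor subunit of a ubiquitin ligase (0.40), Zfand2a, a regulator of the proteasome (0.25), Nfatc2ip (0.36) and 1500009L16Rik (0.35) were also higher. The remaining entries, Bloc1s2-ps (0.44) and Gm2614 (0.83), are annotated as processed pseudogenes and, like the ribosomal genes, can share reads with near-identical copies, so their counts are uncertain.

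The lower genes of the rule were led by Cntn2. Wdr60, an intermediate chain of the dynein that works in cilia, was at 11.2, 10.1, 11.2, 9.78 and 10.7 CPM in Klhet, against 14, 15.7, 14 and 14.2 CPM in WT-o (-0.43, p = 0.000172). Tmod1, which caps actin filaments, was at 19, 20.8, 19.1, 19 and 21.8 CPM in Klhet, against 23, 28.3, 28.1 and 24.4 CPM in WT-o (-0.37, p = 0.000258). Tmem63a, a mechanically activated ion channel, differed by -0.57 (p = 0.00132) and was lowest in Klhet replicate 5, at 26 CPM against 31.7 to 45.9 CPM in the other Klhet and 47 to 64.4 CPM in the WT-o libraries. Nuclear proteins among the lower genes were Akap8 (-0.28), the DNA damage mediator Mdc1 (-0.36), the chromatin remodeller Chd2 (-0.33) and Safb2 (-0.31). The others besides Trf, Arsg and Rnf43 were the lysosomal membrane protein Cln3 (-0.30), the motor protein Myo1e (-0.46) and Rnf150 (-0.37). All 28 genes had an unadjusted p under 0.05 without WT-o replicate 2, where 3.15% of all genes were higher and 2.03% lower. That fit shares its other libraries with the comparison that chose these genes, so this count is no independent support.

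Each of these genes was also read in the 2-month-old mice, whose 4 Klko and 4 WT-y libraries gave no fold change to the rule. Their spread entered the p-values by which the rule ranked genes, so the counts that follow are a description and not independent support. Of the 14 higher genes 13 had the same sign in Klko, 9 at an unadjusted p under 0.05 and 6 at an adjusted p under 0.05 by limma, where 14.2% and 5.4% of all genes were higher. Of the 14 lower genes 12 had the same sign, 9 at an unadjusted p under 0.05 and 5 at an adjusted p, where 14.8% and 6.03% of all genes were lower. In a fit of the 8 young libraries alone, 8 of the 14 higher and 8 of the 14 lower genes were at an unadjusted p under 0.05 in the same direction, where 11% of all genes were higher and 10.6% lower, and none at an adjusted p. Cntn2 was at 114, 96.1, 120 and 119 CPM in Klko, against 172, 176, 158 and 190 CPM in WT-y (-0.63, adjusted p = 0.00588 by limma), and Trf at 269, 255, 311 and 292 CPM in Klko, against 448, 408, 429 and 496 CPM in WT-y (-0.66, adjusted p = 0.00883 by limma). With striatal markers as a covariate these were -0.68 and -0.66, and in the 8 libraries alone the adjusted p was 0.0571 for Cntn2 and 0.054 for Trf by limma. Both ranges were separate from their controls at both ages, but the share of all genes without overlap was not counted for the young libraries. Nr2f1 differed by 0.41 and Thra by 0.53 in Klko (adjusted p = 0.0174 and 0.00589 by limma). Arsg, in contrast, differed by -0.22 (p = 0.23), and Fbxo44, Safb2, Cln3 and Akap8 had values from -0.03 to 0.03 in Klko. Of the myelin list 10 genes were lower and none higher in Klko at an unadjusted p under 0.05, with a median of -0.22, and this share of 20% was close to the 14.8% of all genes that were lower. The count was 16 without Klko replicate 3, where 12.4% of all genes were lower, and 24 without WT-y replicate 2, where 19.2% were. Genotype and age differ together between the comparisons. A test of the difference between the Klhet and the Klko effect passed no gene (smallest adjusted p = 0.148 by limma), and 1462 were at an unadjusted p under 0.05. For Cntn2 the difference between the effects was 0.07 (p = 0.65) and for Arsg -0.43 (p = 0.105).

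**Figure D5:**
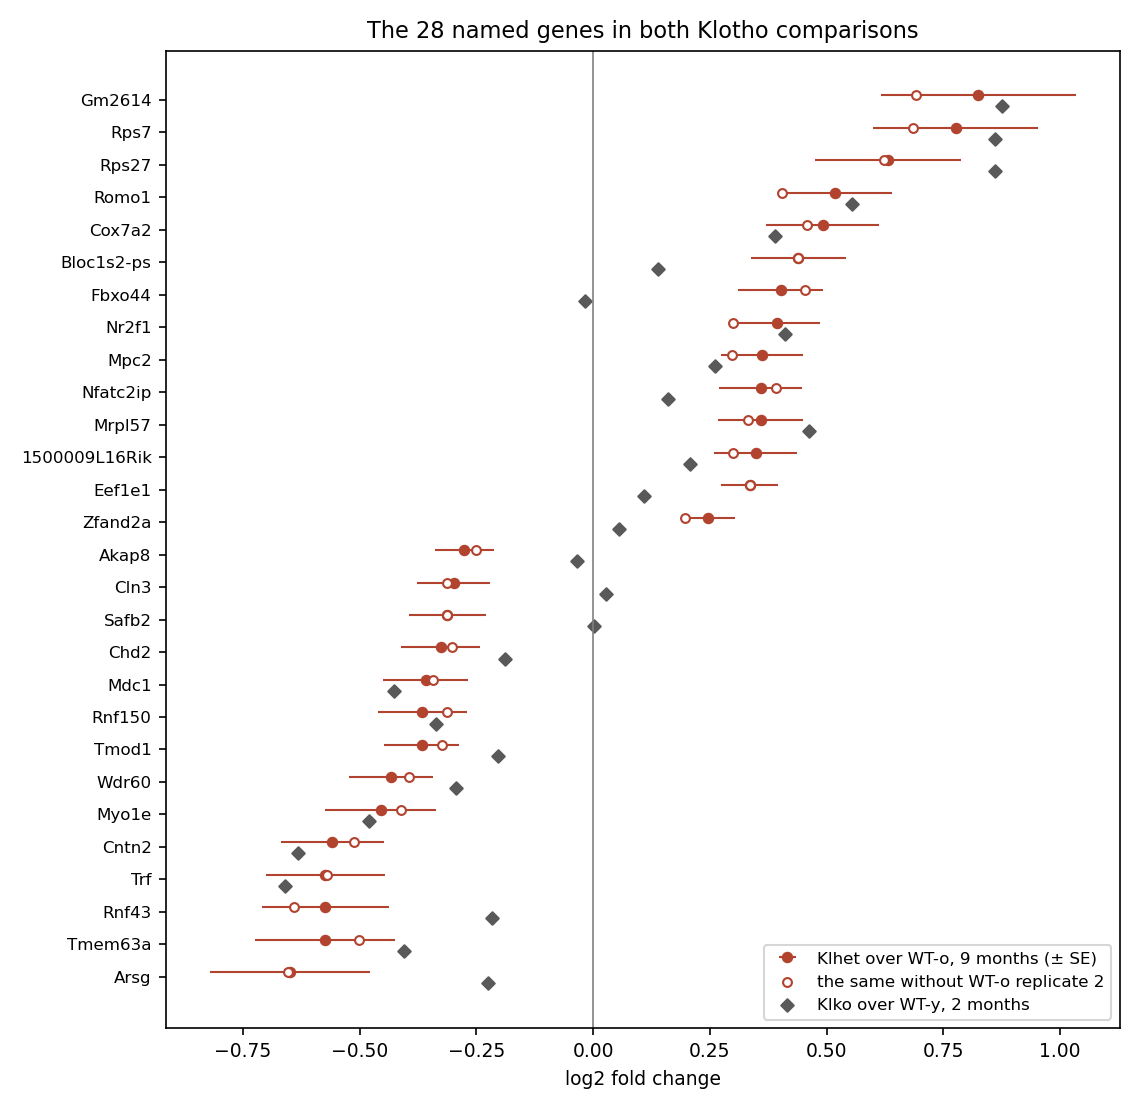
Log2 fold changes (x axis) of the 28 genes named by the rule, for Klhet over WT-o with the standard error (filled circles), for the same without WT-o replicate 2 (open circles) and for Klko over WT-y (diamonds). Cntn2 and Trf lie near -0.6 in both comparisons, at -0.56 and -0.57 in Klhet and -0.63 and -0.66 in Klko, while Fbxo44, Safb2 and Cln3 lie near 0 in Klko.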

How the data were processed

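Bulk RNA of 17 Klotho mice was sequenced, and 5 Klhet and 4 WT-o libraries were compared here. Alignment was to mm10 (Subread) and gene counting by featureCounts. What the authors deposited are CPM per library, and the rule by which low genes were left out is not given in the sources used here. The deposited log2 fold changes, average log2 CPM, p-values and FDR columns hold the authors' own edgeR comparisons and were not used. Infusion tables were not used here. Of 14967 rows, 23 symbols turned into dates were restored and 3 repeated symbols left out. A minimum of 0.5 CPM in 4 libraries removed no gene.

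CPM were rescaled by TMM factors, and log2(CPM + 0.5) was fitted with limma 3.58.1 (trend, R 4.3.3) on all 17 libraries in 4 groups, without a replicate block, with two-sided tests and Benjamini-Hochberg adjustment over 14964 genes. P-values rest on the spread between single mice. Since the deposited CPM steps are whole reads (100% of values within 0.05 reads), edgeR 4.0.16, DESeq2 1.42.0 and limma-voom were run on recovered read counts as alternatives. Transcript lengths and positions are from GENCODE vM21 (GRCm38), for 14502 genes, and loess (span 0.3) served to remove the length trend. Tested on simulated data for this comparison, the fit recovered 86% of 2-fold and 54% of 1.5-fold changes, with 6 false calls among 14764 genes. The simulated counts were drawn independently for each gene and held none of the library differences described above. These rates therefore cannot be carried over to the measured libraries.

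Members and lists were chosen with earlier results of these data known. Named were Kl, Cntn2 and Trf, any gene at an adjusted p under 0.05, the 14 higher and 14 lower genes with the smallest p among genes of mean log2 CPM over 1 without overlap between the groups, and list members at an unadjusted p under 0.05, at most 4 of a list with values. Genes of the potassium channel, myelin and lineage lists that did not pass were named after their values were seen. Alternatives were other scalings, pseudocounts and filters, fits of 9 libraries, a replicate block, each library left out, tissue covariates and removal of the length trend. Some genes are not reported here.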

Additional observations from a re-analysis of the deposited data

Results flagged for a closer look

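Dixon's test for a single far value was applied to 132 groups of 4 or 5 libraries, for 29 genes and 37 lists, and marked 9, where chance alone marks about 1 in 20 groups. Among genes, Fbxo44 was at 125 CPM in Klhet replicate 5, against 109 to 111 CPM in the other Klhet libraries. Rps27 was at 3.4 CPM in Klhet replicate 2, against 4.41 to 4.78 CPM in the others of its group. In WT-o, Cox7a2 was at 10.5 CPM in replicate 4, with 7.87 to 7.95 CPM in the other replicates. Wdr60 was at 15.7 CPM and Rnf150 at 96.7 CPM in WT-o replicate 2, with 14 to 14.2 CPM and 83 to 84.3 CPM in the other WT-o libraries.

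Of the summed lists, thalamus and habenula markers were at 569 CPM in Klhet replicate 1, against 430 to 448 CPM in the other Klhet libraries. Ligands and partners of Klotho were at 2375 CPM in WT-o replicate 1, against 2000 to 2051 CPM. WT-o replicate 2 stood apart for striatal neurons at 2058 CPM, against 377 to 417 CPM, and for the hypothalamus at 207 CPM, against 50.8 to 74.6 CPM.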

How the results depend on the processing

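Of 725 values of named genes under 25 alternatives, none changed sign, 719 kept their side of the adjusted threshold and 6 passed it, all by DESeq2. Except for Kl, these genes were picked for a small p and no overlap between the same libraries. Their constant sign was thus largely set by the choice and is no support. None passed the adjusted threshold in the main fit, so those that kept their side stayed without a call. At an unadjusted p under 0.05 the 999 higher and 600 lower genes became 568 and 1122 without rescaling, which moved the median of all genes to -0.06, 373 and 223 without WT-o replicate 2 and Klhet replicate 5 together (chosen after seeing the data), 76 and 71 with Klhet replicate 1 as the only Klhet library, and 1459 and 973 in a fit of the 9 libraries alone. Leaving out each library in turn gave 472 to 1090 higher and 304 to 648 lower, with both lowest counts without WT-o replicate 2. At an adjusted p under 0.05, DESeq2 passed 1 higher and 5 lower genes and limma-voom 1 lower (Kap), and with each library left out 0 to 7 lower genes passed, the 7 without Klhet replicate 1, among them the kidney genes Acsm2, Kap, Pck1, Slc34a1 and Umod. The 10 lower myelin genes became 21 in the fit of 9 libraries, 5 with the choroid plexus covariate, 5 without WT-o replicate 2 and Klhet replicate 5, 2 with Klhet replicate 1 alone, and 4 to 12 with each library left out, where Klhet replicate 5 gave the 4, WT-o replicate 3 gave 6, WT-o replicate 2 gave 5 and WT-o replicate 4 gave 12. The cause of these shifts was not tested. Same-numbered Klhet and WT-o libraries did not deviate together (correlations 0.017, -0.069, -0.229 and -0.042). These values cannot show whether mice were paired, and the labels do not say that the numbers pair them. The numbers are those of the sample titles and for Klhet differ from those in the library names. Libraries with the same number in their names were not compared. With the replicate number as a block 682 genes were higher and 397 lower, 4 of them myelin genes, and Cntn2 and Trf had p = 0.000944 and 0.00195 by limma. For Klko against WT-y, under settings chosen after seeing the data, each library left out in turn gave 8 to 9 of the 14 higher and 6 to 9 of the 14 lower genes. Lower myelin genes numbered 9 to 24, with 16 without Klko replicate 3 and 24 without WT-y replicate 2. In these fits 10.9% to 19.5% of all genes were higher and 11.6% to 19.2% lower at the same unadjusted threshold. Both shares were largest without WT-y replicate 2.

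Across genes, which are not independent replicates, fold changes had a Spearman rho of -0.27 with transcript length. By library the rho was -0.18 to -0.04 in Klhet and -0.01 to 0.23 in WT-o. With the trend removed Romo1 went from 0.52 to 0.39, Bloc1s2-ps from 0.44 to 0.28 and Cntn2 from -0.56 to -0.49. Mpc2 went from 0.36 to 0.41 and Trf from -0.57 to -0.58. The part of length in the named differences was not tested beyond removal of the trend. A gene at 1 CPM rested on 26.3 to 39.4 reads.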
